A study of Rattus norvegicus with 24 samples.

Results

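Immediate early genes and other activity-induced genes were followed in RNA sequencing of brain punches from rats whose fathers had self-administered morphine or saline. The genes are 40 symbols named by the selection rule, out of 37403 identifiers in each of the count tables, and all 40 had a row in both the table of the nucleus accumbens (NAC) and that of the ventral tegmental area (VTA). Their levels were described by library, region and sire group, and in NAC also against Slc17a7, a transcript of cortical glutamatergic neurons. The members were not chosen on a value of theirs, but the set was proposed with other results of these data known.

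Adult first-generation offspring, labelled male and at least 60 days old, came from sires that took morphine (MOR-sired) or saline (SAL-sired) by self-administration for 60 days. There were 7 MOR-sired and 7 SAL-sired NAC libraries, and 5 MOR-sired and 5 SAL-sired VTA libraries. Each is named by sire group, region and replicate, so that MOR_NAC 4 is replicate 4 of MOR-sired NAC. No label used here gives the rat strain, the litter or the sire of a library, so p-values measure the spread between libraries and sires cannot be separated from offspring. The levels are those of tissue taken right after decapitation. None of the labels mentions a challenge of the offspring before death, and whether there was any is not known here.

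Immediate early genes are transcribed within minutes of synaptic or hormonal stimulation, without new protein synthesis. Calcium entry and MAP kinases activate factors already in the cell, such as CREB and SRF, which bind the promoters of these genes. The products include transcription factors that drive a later wave of genes, synaptic proteins, secreted peptides, and phosphatases and RNA-binding proteins that end the response. In the NAC and the VTA they are widely used as markers of neuronal activity after drugs of abuse.

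Promoters of 4 members are shown because they carry the full cyclic AMP response element (CRE), the site bound by CREB, while their transcripts went in opposite directions with Slc17a7 in NAC. They were chosen after their values were seen. Btg2 and Ier2 rose with Slc17a7, and Plk2 and Scg2 fell. The sequences are those of RefSeq for assembly GRCr8, read on the gene's strand from 250 bases before to 50 bases after the start, and the capitals mark the element TGACGTCA. They lie at chr13:48087641-48087940 (minus strand) for Btg2, chr19:40399123-40399422 (plus strand) for Ier2, chr2:43702286-43702585 (plus strand) for Plk2 and chr9:88256817-88257116 (minus strand) for Scg2.
Btg2: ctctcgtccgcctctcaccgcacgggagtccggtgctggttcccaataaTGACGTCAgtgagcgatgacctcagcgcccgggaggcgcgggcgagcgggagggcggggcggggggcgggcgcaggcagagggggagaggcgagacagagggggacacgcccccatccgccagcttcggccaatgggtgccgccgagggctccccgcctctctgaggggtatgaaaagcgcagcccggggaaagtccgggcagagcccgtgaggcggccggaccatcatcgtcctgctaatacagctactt
Ier2: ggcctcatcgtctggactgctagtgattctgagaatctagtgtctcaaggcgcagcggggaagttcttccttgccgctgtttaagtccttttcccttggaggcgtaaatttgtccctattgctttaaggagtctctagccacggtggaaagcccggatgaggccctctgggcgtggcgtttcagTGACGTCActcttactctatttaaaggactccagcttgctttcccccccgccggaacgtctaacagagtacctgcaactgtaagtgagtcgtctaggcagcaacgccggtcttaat
Plk2: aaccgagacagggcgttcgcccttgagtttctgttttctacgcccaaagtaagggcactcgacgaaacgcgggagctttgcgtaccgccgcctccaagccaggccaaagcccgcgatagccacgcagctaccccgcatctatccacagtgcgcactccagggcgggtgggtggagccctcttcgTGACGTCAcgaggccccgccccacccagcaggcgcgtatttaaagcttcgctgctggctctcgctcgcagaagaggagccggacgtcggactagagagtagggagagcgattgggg
Scg2: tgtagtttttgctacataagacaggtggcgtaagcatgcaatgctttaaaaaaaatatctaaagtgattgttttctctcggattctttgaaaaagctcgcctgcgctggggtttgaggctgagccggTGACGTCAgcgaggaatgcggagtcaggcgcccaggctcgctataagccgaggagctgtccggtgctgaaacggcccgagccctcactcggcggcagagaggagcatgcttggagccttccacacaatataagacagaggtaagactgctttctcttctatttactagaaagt

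The first base of the element lay 66 bases before the start in both Ier2 and Plk2, 123 bases before it in Scg2 and 201 bases before it in Btg2. RefSeq promoters of this length were at hand for 28 of the 40 members. The element was found on either strand in 8 of these 28 (28.6%), namely Btg2, Dusp1, Ier2, Jund, Maff, Plk2, Scg2 and Vgf, against 612 of 33469 promoters in the table (1.83%). The shorter core TGACG, which the full element contains, was found on either strand in 17 of 28 member promoters and in 21.2% of all promoters. The EGR site GCGGGGGCG was found in 5 of 28 (Fosl2, Nptx2, Nr4a1, Sik1 and Zfp36) and in 2.73% of all promoters. A CArG box, the site of SRF, was found in 3 of 28 (Dusp5, Egr1 and Zfp36) and in 1.64% of all promoters. The AP-1 site TGANTCA was found in 0 of 28 and in 7.33% of all promoters. Of the 8 members with the full element, 4 rose with Slc17a7, 2 fell and 2 passed no test, while of all 28 members with a promoter 11 rose, 3 fell and 14 passed no test.

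NAC libraries held 21.9 to 41.3 M estimated counts, where 1 M is 1e6, and VTA libraries 23.6 to 43.5 M. The VTA punches carried dopamine neuron transcripts, with Slc6a3, the dopamine transporter, at 874 to 2117 CPM (counts per 1e6) in VTA and at most 0.667 CPM in NAC. The NAC punches held striatal and cortical transcripts in unequal parts. The summed level of 12 medium spiny neuron markers ran from 617 to 8784 CPM in MOR-sired NAC and from 1809 to 6535 CPM in SAL-sired NAC. The summed level of 10 cortical glutamatergic markers ran from 407 to 2452 CPM in MOR-sired NAC and from 1133 to 2184 CPM in SAL-sired NAC. MOR_NAC 4 stood apart, with the lowest Slc17a7 (111 CPM, against 567 to 1366 CPM in the other 13) and the highest medium spiny neuron sum. In VTA, SAL_VTA 2 stood apart with 84.5 CPM of Slc17a7, against 0.519 to 14.9 CPM in the other 9. MOR_VTA 3, 4 and 5 and SAL_VTA 5, all labelled male, had 78.9 to 108 CPM of Xist and at most 0.0720 CPM of the Y-linked Ddx3y, while the other 20 libraries had at most 0.253 CPM of Xist and at least 28.7 CPM of Ddx3y.

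In NAC most members were expressed at clearly higher levels than in VTA. Arc, whose product removes AMPA receptors from synapses, averaged 164 ± 41.5 CPM over NAC libraries (SD, n = 14) and 3.92 ± 2.60 CPM over VTA libraries (SD, n = 10). Egr1, a zinc finger factor, averaged 184 ± 28.5 CPM over NAC libraries and 8.42 ± 3.54 CPM over VTA libraries. The estimated counts are scaled from transcript abundances, so these CPM are levels per length and can be set side by side between genes. Each region was deposited as a table of its own, so the levels were not tested between regions. Mean levels were over 2-fold higher in NAC for 27 of the 40 members, against 10.7% of 20570 genes, and over 10-fold higher for 10 members, against 1.47%. Every NAC library lay above every VTA library for 25 members (12.8% of genes). The median NAC over VTA ratio was 3.56 over the members and 0.959 over all genes. In bulk tissue, fewer cells of a type and less RNA per cell cannot be told apart. The NAC punches also held cortical transcripts in unequal parts (Slc17a7 from 111 to 1366 CPM), and the 4 libraries with Xist were all from VTA. The part of either in these ratios was not tested.

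Among the AP-1 and related leucine zipper factors, which bind DNA as pairs, Junb and Fosb differed most by region. Junb averaged 145 ± 19.0 CPM over NAC libraries and 11.9 ± 2.25 CPM over VTA libraries, a ratio of 12.2. Fos averaged 52.0 ± 14.2 CPM over NAC libraries and 10.9 ± 3.94 CPM over VTA libraries. The Jun and Jund genes, which supply partners of Fos proteins, were within 2-fold between regions. Jund averaged 230 ± 20.7 CPM over NAC libraries and 167 ± 18.3 CPM over VTA libraries. Maff and Atf3 were the lowest members in NAC, at 1.83 ± 0.345 and 0.990 ± 0.408 CPM.

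The EGR, NPAS4 and NR4A factors had ratios from 12.6 for Nr4a3 to 63.3 for Egr4, a range that also held Arc at 41.8 and Fosb at 16.2. Egr4 averaged 73.2 ± 10.9 CPM over NAC libraries and 1.16 ± 1.26 CPM over VTA libraries. Npas4, a neuronal factor that responds to calcium, averaged 16.8 ± 5.26 CPM over NAC libraries and 0.532 ± 0.281 CPM over VTA libraries, with every NAC library at or above 7.96 CPM and every VTA library at or below 0.952 CPM. Nr4a1, an orphan nuclear receptor, averaged 125 ± 20.4 CPM over NAC libraries and 8.07 ± 1.83 CPM over VTA libraries. The Krüppel-like factors were divided. Klf10 had a ratio of 5.91, while Klf2 and Klf4, at 1.36 and 1.10, had overlapping ranges. SAL_VTA 2 weighed on these ratios: for Egr3 the ratio was 38.1 over all libraries and 152 without it, and for Egr4 it was 93.9 without it. The VTA means without SAL_VTA 2 were 0.360 CPM for Egr3 and 0.779 CPM for Egr4, so the size of these ratios rests on low levels. The number of members over 2-fold higher in NAC was 27 with and without that library.

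The synaptic effectors and kinases included members at both ends. Plk2, a kinase that acts in homeostatic weakening of synapses, averaged 200 ± 27.5 CPM over NAC libraries and 21.0 ± 3.26 CPM over VTA libraries. Homer1, a scaffold of glutamate receptors whose short isoform is the inducible one, averaged 58.6 ± 10.7 CPM over NAC libraries and 10.2 ± 2.39 CPM over VTA libraries, and the gene-level tables do not separate its isoforms. Rheb, the small GTPase that activates mTOR, averaged 179 ± 13.9 CPM over NAC libraries and 186 ± 15.6 CPM over VTA libraries. Rheb varied little, within 157 to 207 CPM over all 24 libraries.

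Secreted products diverged. Scg2, a granin processed to neuropeptides in dense core vesicles, averaged 234 ± 50.7 CPM over NAC libraries and 538 ± 45.6 CPM over VTA libraries, and was the single member whose VTA libraries all lay above the NAC libraries (12.4% of genes). It was also the single member over 2-fold lower in NAC (11.8% of genes). Vgf, a related peptide precursor, went the other way, at 241 ± 22.8 CPM over NAC libraries and 110 ± 18.7 CPM over VTA libraries. Ptgs2, the inducible enzyme of prostaglandin synthesis, averaged 10.8 ± 2.68 CPM over NAC libraries and 0.990 ± 0.491 CPM over VTA libraries.

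Feedback regulators and the remaining early response genes had mostly moderate ratios. Dusp1, Dusp5 and Dusp6, phosphatases that switch off MAP kinases, had ratios of 3.50, 4.88 and 4.08, while Dusp4 was within 2-fold between regions. Zfp36, which binds AU-rich messages and speeds their decay, averaged 5.69 ± 0.777 CPM over NAC libraries and 6.88 ± 0.853 CPM over VTA libraries. Ier5 averaged 56.1 ± 14.7 CPM over NAC libraries and 13.3 ± 3.10 CPM over VTA libraries. Gadd45b and Gadd45g, stress-induced genes linked to DNA demethylation in neurons, had ratios of 1.81 and 2.85.

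**Figure D1:**
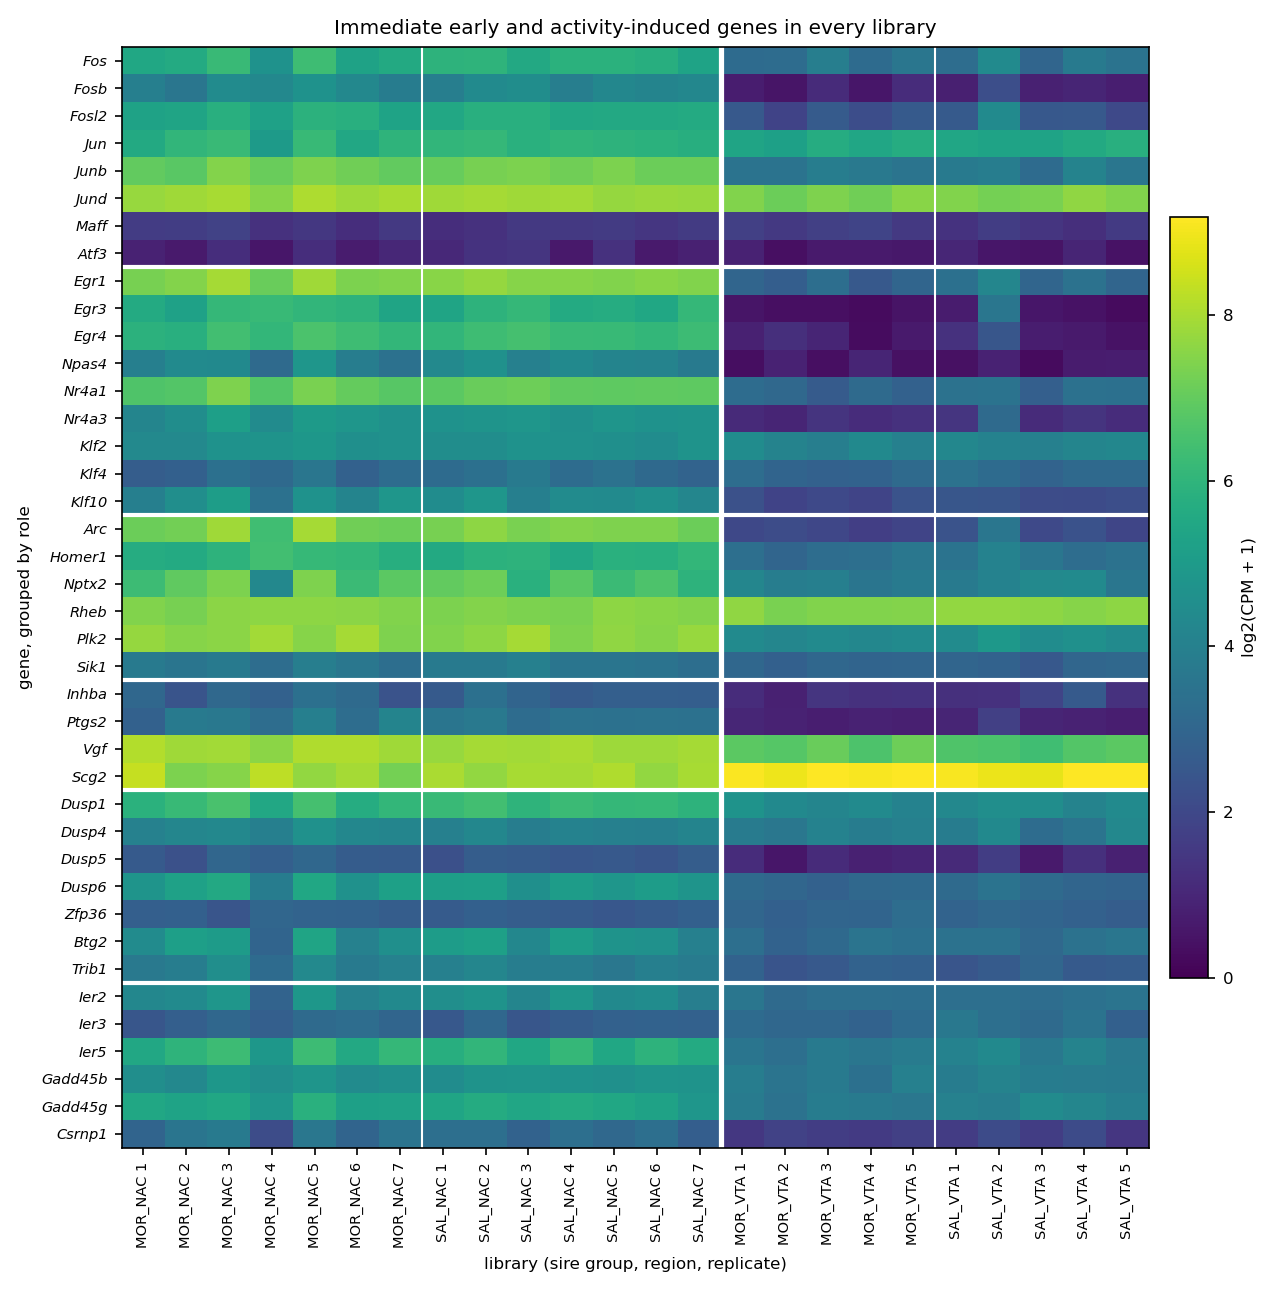
Heat map of log2(CPM + 1) of the 40 genes (rows, grouped by role) in 24 libraries (columns, MOR-sired left of SAL-sired within NAC and then VTA). Egr3, Egr4, Npas4 and Arc are brighter in each of the 14 NAC libraries than in any VTA library, with Npas4 less bright than Egr3, Egr4 and Arc. SAL_VTA 2 is the VTA column that is brighter for Egr3 (11.1 CPM) and Fosl2 (20.1 CPM).

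In NAC no member passed the test between MOR-sired and SAL-sired libraries. Fos had a lowest, median and highest level of 24.8, 46.7 and 78.5 CPM in MOR-sired NAC, against 39.3, 57.0 and 61.5 CPM in SAL-sired NAC. Egr1 had 136, 172 and 246 CPM in MOR-sired NAC, against 171, 184 and 211 CPM in SAL-sired NAC. Arc had 82.1, 144 and 246 CPM in MOR-sired NAC, against 136, 167 and 198 CPM in SAL-sired NAC. For all of these the SAL-sired range lay within the MOR-sired range, whose lowest value was that of MOR_NAC 4.

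By edgeR's quasi-likelihood test with Benjamini-Hochberg adjustment over all genes, 0 of 40 members had an adjusted p under 0.05, as had 0 of the 18220 genes tested (0%). DESeq2 called 0 members and 4 genes in all. At an unadjusted p under 0.05 there were 0 members, against 6.18% of the genes tested. The log2 fold change, positive where higher in MOR-sired, was −0.10 (SE 0.21) for Fos, −0.03 (SE 0.12) for Egr1, −0.05 (SE 0.20) for Arc, −0.13 (SE 0.24) for Npas4, 0.00 (SE 0.12) for Nr4a1, −0.09 (SE 0.10) for Junb and 0.03 (SE 0.08) for Vgf. Estimates were positive for 20 members (49.5% of genes) and negative for 20 (50.5% of genes), with a median of −0.00203 over members and −0.00115 over all genes. The 95% intervals bound what these 14 libraries could have missed. Their lowest bound was 0.504-fold, for Atf3, and their highest was 1.93-fold, for Nptx2.

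The members of smallest p were Dusp4, Dusp5, Zfp36 and Klf4. Dusp4 had a lowest, median and highest level of 14.4, 17.5 and 23.7 CPM in MOR-sired NAC, against 13.9, 14.9 and 18.0 CPM in SAL-sired NAC. Its log2 fold change was 0.18 (SE 0.10, adjusted p = 0.849 by edgeR). For Dusp5 it was 0.22 (SE 0.14), for Zfp36 0.14 (SE 0.10) and for Klf4, a Krüppel-like factor, −0.22 (SE 0.18). The ranges of both sire groups overlapped for each of the 40 members, while 0.0823% of the genes tested did not overlap.

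With Slc17a7 as a covariate, 0 of 40 members were called, as were 0% of 18219 genes, and 2 members had an unadjusted p under 0.05, against 10.6% of genes. These were Dusp4 (0.20, SE 0.08, adjusted p = 0.440 by edgeR) and Csrnp1 (0.17, SE 0.08, adjusted p = 0.467). DESeq2 called 0 members and 65 genes under the same covariate.

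In VTA no member was called either, and most of the larger estimates rested on one SAL-sired library. Egr3 had 0.418, 0.312, 0.289, 0.192 and 0.389 CPM in MOR-sired VTA, against 0.613, 11.1, 0.472, 0.356 and 0.196 CPM in SAL-sired VTA, in order of replicate. The value of 11.1 CPM was that of SAL_VTA 2, and without it the groups overlapped at under 1 CPM. Its log2 fold change was −2.90 (SE 1.12, adjusted p = 0.917 by edgeR) with all 10 libraries and −0.26 without SAL_VTA 2. Arc had 3.01, 3.44, 2.87, 2.28 and 2.68 CPM in MOR-sired VTA, against 4.04, 11.1, 3.05, 3.94 and 2.75 CPM in SAL-sired VTA. The log2 fold change of Arc was −0.70 (SE 0.37) with all libraries and −0.18 without SAL_VTA 2. Fos, at −0.13 (SE 0.27) with all libraries, was at 0.14 without SAL_VTA 2. Egr1 was at −0.51 (SE 0.25) with all libraries and at −0.24 without it.

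The quasi-likelihood test called 0 of 40 members and 0 of 19923 genes (0%) in VTA, and DESeq2 called 0 members and 30 genes. At an unadjusted p under 0.05 there were 5 members, against 5.31% of genes. These were Gadd45g, Vgf, Egr3, Maff and Ier5, the last named after its value was seen. Estimates were positive for 13 members (47.4% of genes) and negative for 27 (52.6% of genes), with a median of −0.09 over members and −0.00651 over all genes. Upper bounds of the 95% intervals reached 2.43-fold, for Npas4, and the lowest bound was 0.0241-fold, for Egr3.

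Gadd45g was the single member whose libraries did not overlap by sire group in VTA (1.23% of genes tested). It had 13.2, 10.1, 13.5, 12.3 and 11.4 CPM in MOR-sired VTA, against 15.3, 14.2, 20.4, 17.6 and 14.7 CPM in SAL-sired VTA. Its log2 fold change was −0.36 (SE 0.10, unadjusted p = 0.00517, adjusted p = 0.793 by edgeR), lower in 5 of 5 MOR-sired libraries, and −0.41 without SAL_VTA 2. Vgf had 117, 108, 134, 98.0 and 143 CPM in MOR-sired VTA, against 98.8, 94.1, 80.9, 104 and 117 CPM in SAL-sired VTA. The ranges of Vgf overlapped, with a log2 fold change of 0.35 (SE 0.11, adjusted p = 0.804 by edgeR). Maff, a small partner of leucine zipper factors, had a log2 fold change of 0.44 (SE 0.17) at 1.37 to 2.70 CPM, and Ier5 of −0.31 (SE 0.14).

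Markers of several other cell types had different ranges in the sire groups of VTA, which were described without a test. The summed level of 4 serotonin neuron markers, transcripts of the neighbouring raphe nuclei, ran from 104 to 272 CPM in MOR-sired VTA and from 6.50 to 97.9 CPM in SAL-sired VTA. Fev, which specifies serotonin neurons, ran from 2.71 to 9.41 CPM in MOR-sired VTA and from 0.221 to 3.14 CPM in SAL-sired VTA. The summed level of 6 choroid plexus and ependyma markers ran from 12.4 to 19.8 CPM in MOR-sired VTA and from 19.3 to 56.4 CPM in SAL-sired VTA. That of 6 meningeal fibroblast markers ran from 24.2 to 37.2 CPM in MOR-sired VTA and from 31.6 to 167 CPM in SAL-sired VTA. The serotonin ranges did not overlap, and the choroid plexus and meningeal ranges did. In SAL-sired VTA the meningeal sum was 167 CPM in SAL_VTA 1, 82.6 CPM in SAL_VTA 2 and at most 39.9 CPM in the others. Choroid plexus sums of SAL_VTA 3 and SAL_VTA 5, at 20.4 and 19.3 CPM, lay near the highest MOR-sired sum. Libraries with Xist numbered 3 in MOR-sired VTA and 1 in SAL-sired VTA. The part of any of these in the Gadd45g, Vgf and Maff values was not tested beyond leaving out libraries. Without the 4 libraries with Xist, the log2 fold change was −0.38 for Gadd45g, 0.41 for Vgf and 0.49 for Maff. With the class of library number (25 to 29, or 32 to 37) as a covariate it was −0.35 for Gadd45g, 0.33 for Vgf and 0.45 for Maff.

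**Figure D2:**
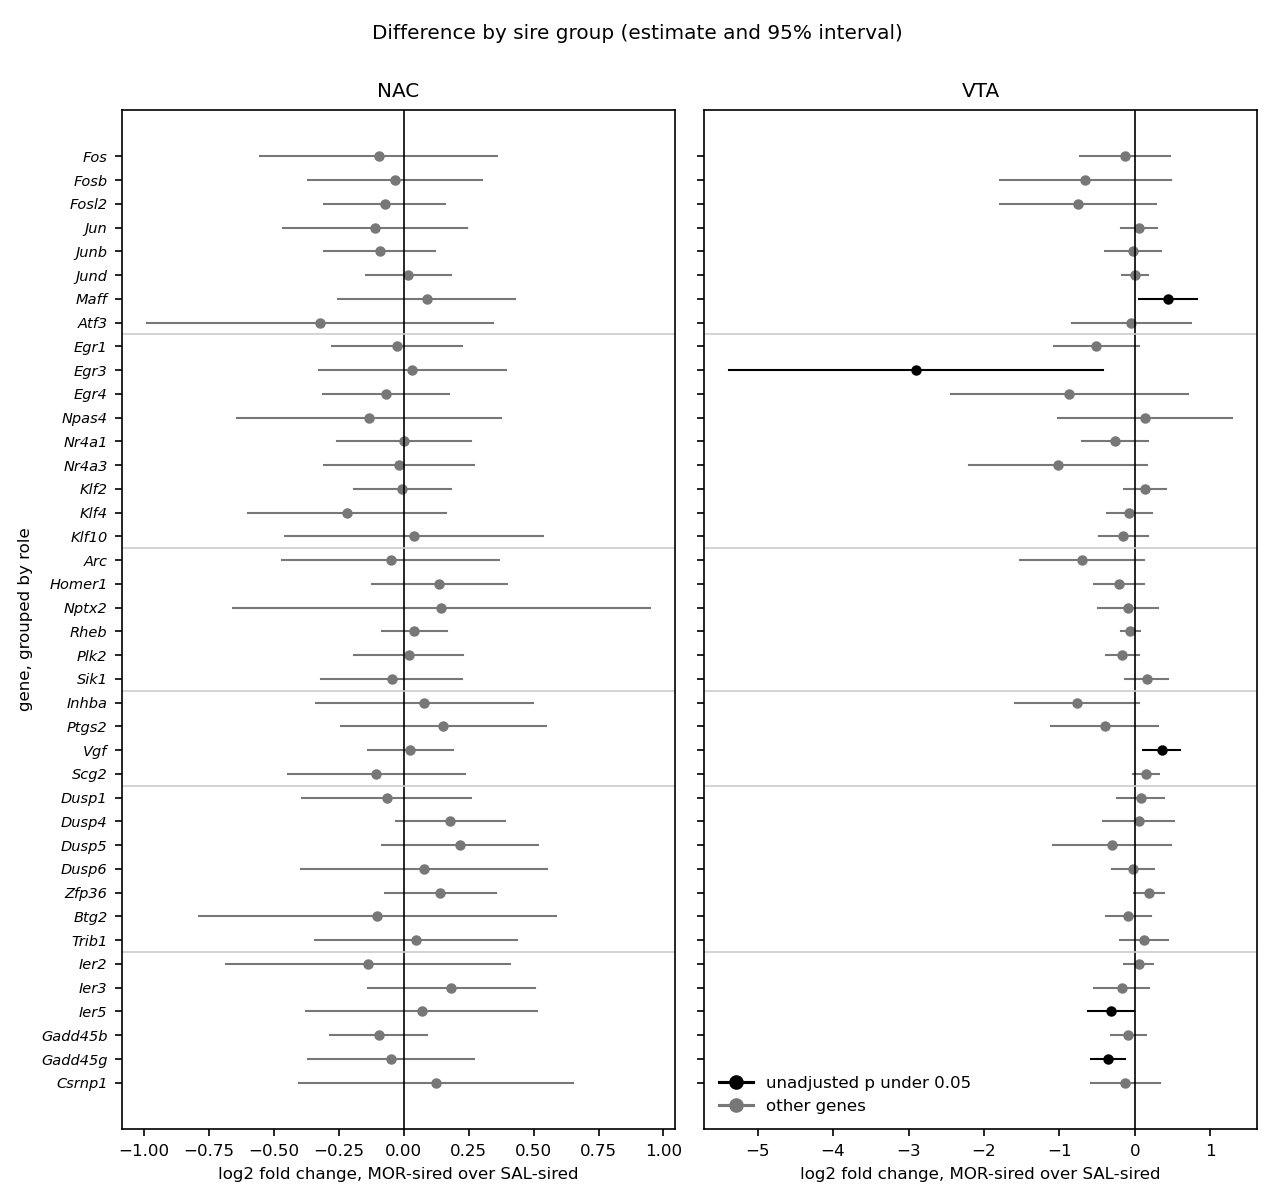
Log2 fold change of each gene, MOR-sired over SAL-sired, with its 95% interval, in NAC (left panel, 14 libraries) and VTA (right panel, 10 libraries); the panels have different scales. All 40 intervals cross 0 in NAC, and 5 do not in VTA, of which Egr3 has the widest interval at −2.90 (SE 1.12).

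SAL_VTA 2 was the highest of the 10 VTA libraries for 18 of the 40 members, against 12.4% of genes tested. It exceeded 2 times the median of the other 9 for 11 members, against 3.16% of genes. These were Egr3, Egr4, Nr4a3, Fosb, Fosl2, Arc, Ptgs2, Npas4, Egr1, Dusp5 and Fos, of which those outside the naming rule were named after their values were seen. Egr3 was 31.3 times the median of the other 9 in SAL_VTA 2 (11.1 CPM, against 0.192 to 0.613 CPM). Nr4a3, a nuclear receptor of the Nr4a1 family, had 8.05 CPM there, against 0.945 to 1.66 CPM in the other 9. Fosl2 had 20.1 CPM, against 2.57 to 5.18 CPM, and Fosb had 3.57 CPM, against 0.434 to 1.26 CPM. Not every member was high in that library. Jun, Jund, Vgf, Scg2 and Atf3, among others, lay below the median of the other 9, with Vgf at 94.1 CPM against a median of 108 CPM. The library also carried the highest Slc17a7 in VTA, and the part of such RNA in these values was not tested.

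**Figure D3:**
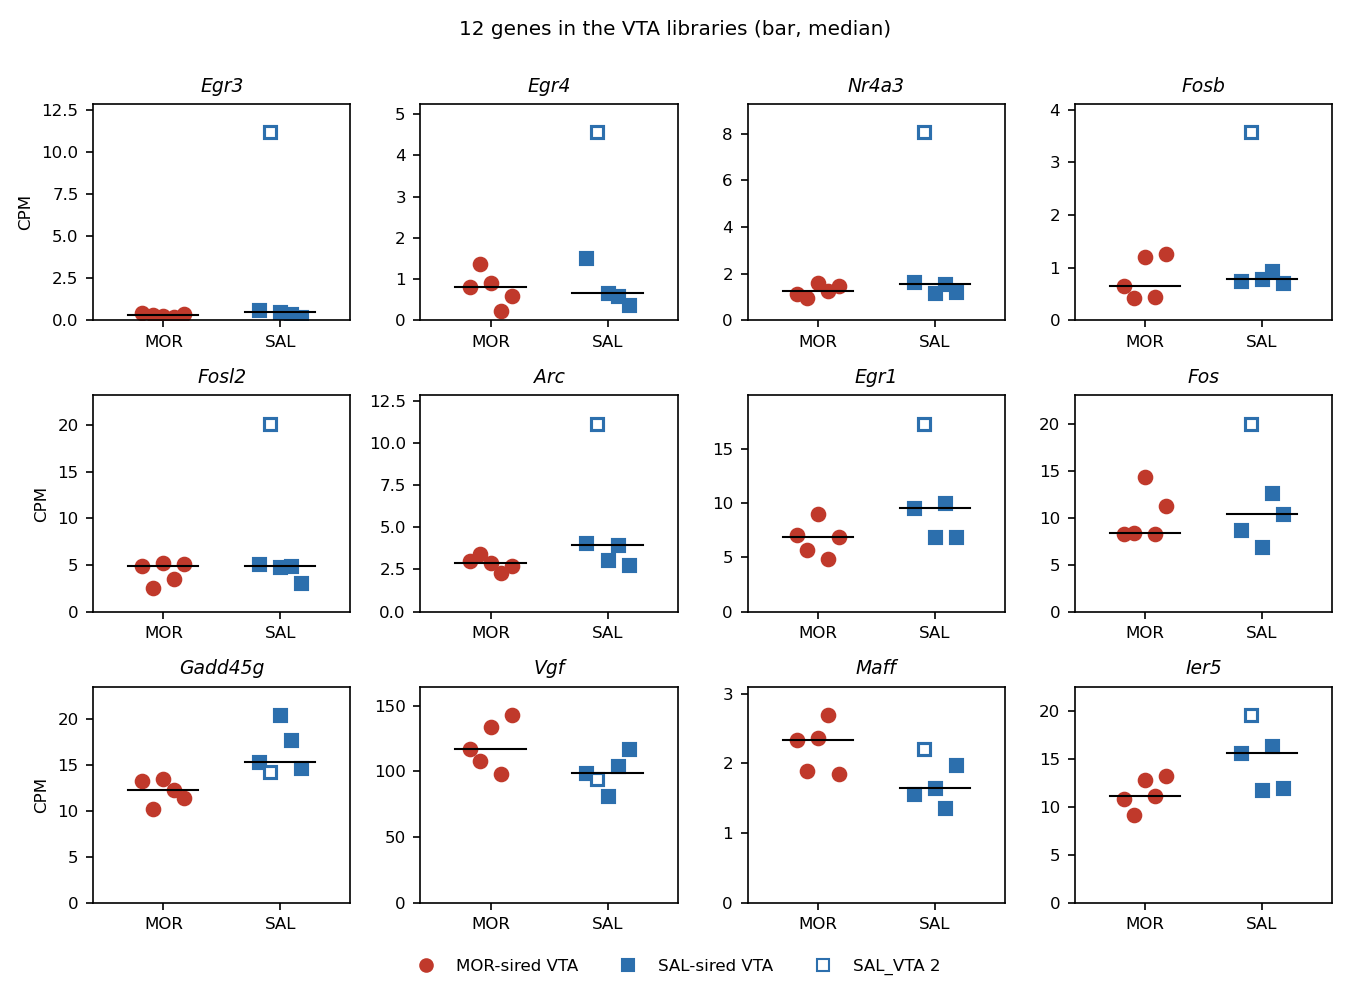
CPM of 12 genes in each VTA library, MOR-sired left of SAL-sired, with the median of the group as a bar and SAL_VTA 2 as an open square. In the upper 8 panels the open square lies above the other 9 libraries, as for Nr4a3 (8.05 CPM), while for Gadd45g the MOR-sired libraries all lie below the SAL-sired ones.

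Whether the effect of the sire differed by region, VTA minus NAC, was tested over all 24 libraries. By edgeR's quasi-likelihood test 0 of 40 members and 0 of 20603 genes were called (0%), and DESeq2 called 0 members and 97 genes. At an unadjusted p under 0.05 there were 3 members, against 4.78% of genes. Egr3 had a difference of −2.86 (SE 0.99, adjusted p = 0.885), and of −0.26 without SAL_VTA 2. Vgf had a difference of 0.34 (SE 0.14, adjusted p = 0.966), with a sire effect of 0.35 in VTA and 0.03 in NAC. Inhba, a subunit of activin, had a difference of −0.84 (SE 0.40, unadjusted p = 0.04996 by edgeR), named after its value was seen. It was at 5.06 CPM in SAL_VTA 4 and 2.68 CPM in SAL_VTA 3, against 0.789 to 1.65 CPM in the remaining VTA libraries.

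In NAC 20 of the 40 members varied with Slc17a7, a measure of the cortical content of the punch. Nptx2, a secreted pentraxin that gathers AMPA receptors at excitatory synapses, had a lowest, median and highest level of 18.6, 115 and 169 CPM in MOR-sired NAC, against 55.5, 97.2 and 142 CPM in SAL-sired NAC. The 18.6 CPM were in MOR_NAC 4, the library of lowest Slc17a7, and the 169 CPM in MOR_NAC 5, at 1220 CPM of Slc17a7. Plk2 went the other way, at 166, 189 and 247 CPM in MOR-sired NAC and 169, 196 and 242 CPM in SAL-sired NAC, and its highest levels were in libraries of low Slc17a7, MOR_NAC 6 and SAL_NAC 3.

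The slope of each gene on Slc17a7 was fitted within sire groups over the 14 libraries and is the log2 change per doubling of Slc17a7. By edgeR's quasi-likelihood test, 17 of 40 members rose with Slc17a7 at an adjusted p under 0.05, against 20.1% of 18219 genes, and 3 fell, against 18.7%. Both directions together were 20 members, against 38.8% of genes. The median slope was 0.10 over the members and −0.00255 over all genes. A slope says that a transcript went with Slc17a7 across punches. It does not say which cells carried the transcript.

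Of the leucine zipper factors Fos, Jun and Jund rose (3 of 8) and none fell. Fos had a slope of 0.39 (SE 0.07, adjusted p = 0.000724 by edgeR), and across the 14 libraries its log2 level correlated with that of Slc17a7 at r = 0.841 (permutation p = 0.00046) and rho = 0.705 (permutation p = 0.00715). Without the 2 libraries farthest from the median of Slc17a7, MOR_NAC 4 and MOR_NAC 6, r was 0.602 for Fos and its slope of 0.44 was no longer called. Junb, with a slope of 0.02 (SE 0.06), did not pass, at 112 to 176 CPM. Of the EGR, NPAS4, NR4A and KLF factors Egr1, Npas4 and Klf10 rose (3 of 9) and none fell. Egr1 had a slope of 0.18 (SE 0.05) and Npas4 one of 0.37 (SE 0.10). Nr4a1 did not pass, at 0.09 (SE 0.06), and neither did Egr3, at −0.16 (SE 0.08, adjusted p = 0.140 by edgeR). Family members thus differed in their slopes, with Egr1 at an estimate above 0 and Egr3 at one below it, a difference that was not itself tested.

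Of the synaptic effectors and kinases Arc and Nptx2 rose and Homer1 and Plk2 fell. Nptx2 had the steepest slope of all members, 0.85 (SE 0.07, adjusted p = 1.53e-06 by edgeR), with r = 0.960 (permutation p = 2e-05) and rho = 0.873 (permutation p = 0.00015), and r was 0.921 without the 2 farthest libraries. Arc had a slope of 0.33 (SE 0.07), with r = 0.776 (permutation p = 0.00399) but rho = 0.442 (permutation p = 0.116). Homer1 had one of −0.16 (SE 0.05), with r = −0.698 (permutation p = 0.00568) but rho = −0.521 (permutation p = 0.0595). Plk2 had one of −0.15 (SE 0.04, adjusted p = 0.00789 by edgeR). The correlation of Plk2 with Slc17a7 was r = −0.752 (permutation p = 0.00013) and rho = −0.829 (permutation p = 0.00043), and r was −0.877 without the 2 farthest libraries. Of the secreted products Ptgs2 rose (0.23, SE 0.08), Scg2 fell (−0.21, SE 0.07, adjusted p = 0.0233 by edgeR) and Vgf did not pass (0.07, SE 0.04).

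Feedback regulators and other early response genes held the largest shares that rose. Dusp1, Dusp6, Btg2 and Trib1 rose among 7 feedback regulators, and Ier2, Ier5, Gadd45g and Csrnp1 among 6 other early response genes. Btg2, an antiproliferative protein that promotes loss of messenger RNA tails, had 6.86, 22.6 and 39.6 CPM as its lowest, median and highest level in MOR-sired NAC, against 14.8, 25.4 and 35.9 CPM in SAL-sired NAC. Its slope was 0.67 (SE 0.08), that of Ier2 0.53 (SE 0.06) and that of Csrnp1, a nuclear protein induced by growth signals, 0.52 (SE 0.04). Dusp6 had a slope of 0.46 (SE 0.04) and r = 0.949 (permutation p = 1e-05, the smallest these permutations can give) with rho = 0.943 (permutation p = 2e-05), and r was 0.918 without the 2 farthest libraries. Dusp1 had a slope of 0.26 (SE 0.05). Zfp36 did not pass, at −0.09 (SE 0.05).

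**Figure D4:**
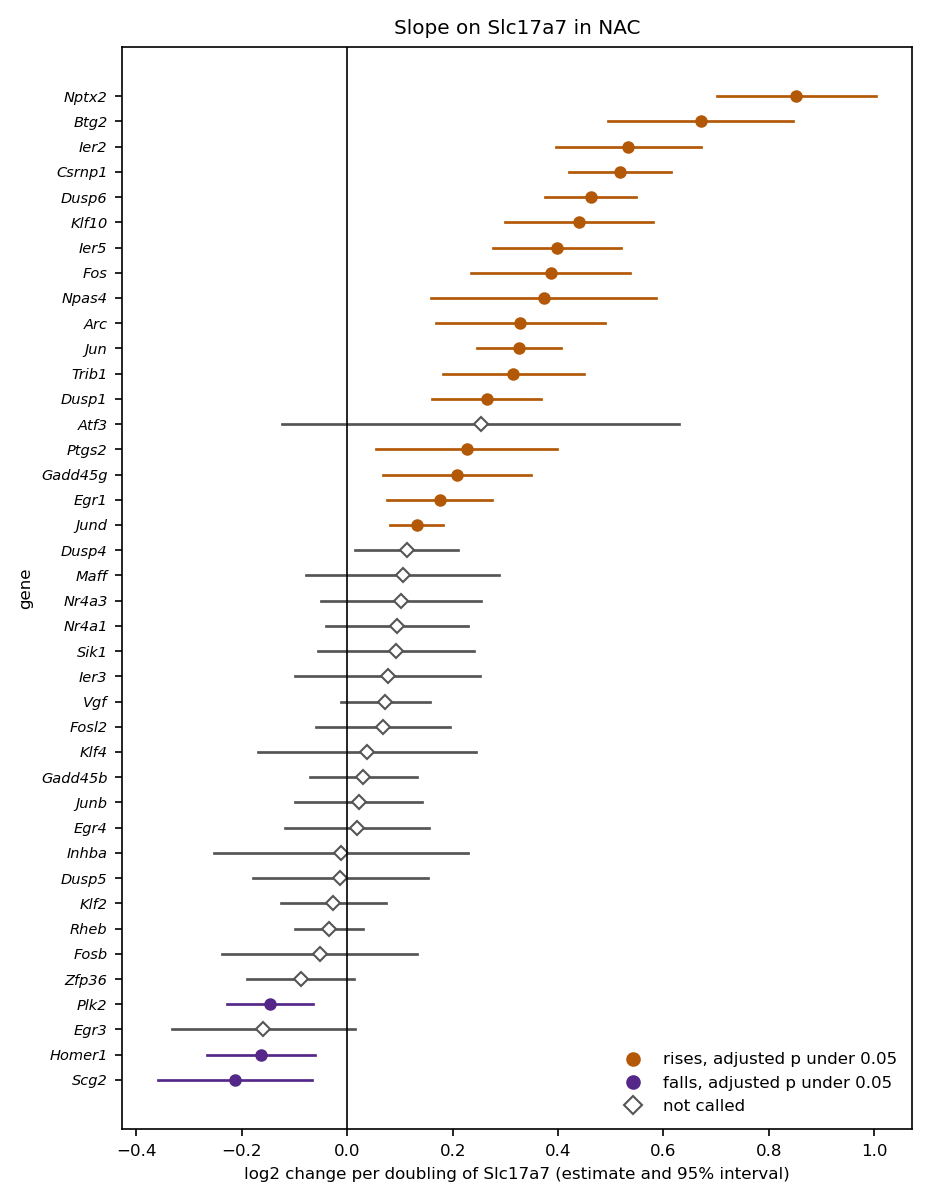
Slope of each gene on Slc17a7 in the 14 NAC libraries (log2 change per doubling of Slc17a7) with its 95% interval, ordered from Nptx2 at 0.85 to Scg2 at −0.21. Filled circles mark the 17 genes that rose and the 3 that fell at an adjusted p under 0.05, and open diamonds the other 20.

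Some calls depended on single libraries. Without MOR_NAC 4, 12 members rose and 2 fell, and Arc, Egr1, Gadd45g, Homer1, Jund and Npas4 were no longer called. The slope without MOR_NAC 4 was 0.29 for Arc, 0.23 for Egr1, 0.43 for Npas4 and −0.19 for Homer1, close to or larger than with all 14 libraries. Without both libraries farthest in Slc17a7, 9 rose and 1 fell. Leaving out any other single library left 18 to 21 members called. Ptgs2 was not called without MOR_NAC 2, 5, 6 or 7, nor without SAL_NAC 1, 2 or 3. Scg2 was not called without MOR_NAC 2, and neither gene was called with no filter. All 20 called members kept the sign of their slope in every alternative fit that was run, and the sign of r was the same in MOR-sired and SAL-sired libraries for all 20. To look for a possible batch, NAC library numbers were split into 1 to 8 and 9 to 14, a cut set here that no label gives. Within these classes r was 0.950 (n = 8) and 0.968 (n = 6) for Nptx2, 0.633 and 0.865 for Fos, 0.944 and 0.971 for Dusp6, and −0.848 and −0.761 for Plk2. It was weaker in numbers 1 to 8 for Arc (0.406, against 0.835 in 9 to 14) and Homer1 (−0.381, against −0.806). For Gadd45g it was 0.0130 in numbers 1 to 8 and 0.678 in 9 to 14. MOR_NAC 4 and MOR_NAC 6, the libraries farthest in Slc17a7, have numbers 9 and 13, so the class 1 to 8 lacks them. Without these libraries r of Gadd45g was 0.361 over the remaining 12. Numbers 1 to 8 reached down to 576 CPM of Slc17a7, in SAL_NAC 3, against 567 CPM in MOR_NAC 6 and 111 CPM in MOR_NAC 4. With the class of number as a covariate in the slope fit, 21 members were called, the 20 of the main fit and Dusp4. The part of class and of the range of Slc17a7 in the weaker r of numbers 1 to 8 was not tested. Correlations with Slc17a7 were computed as 80 relations, r and rho for each of 40 members.

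**Figure D5:**
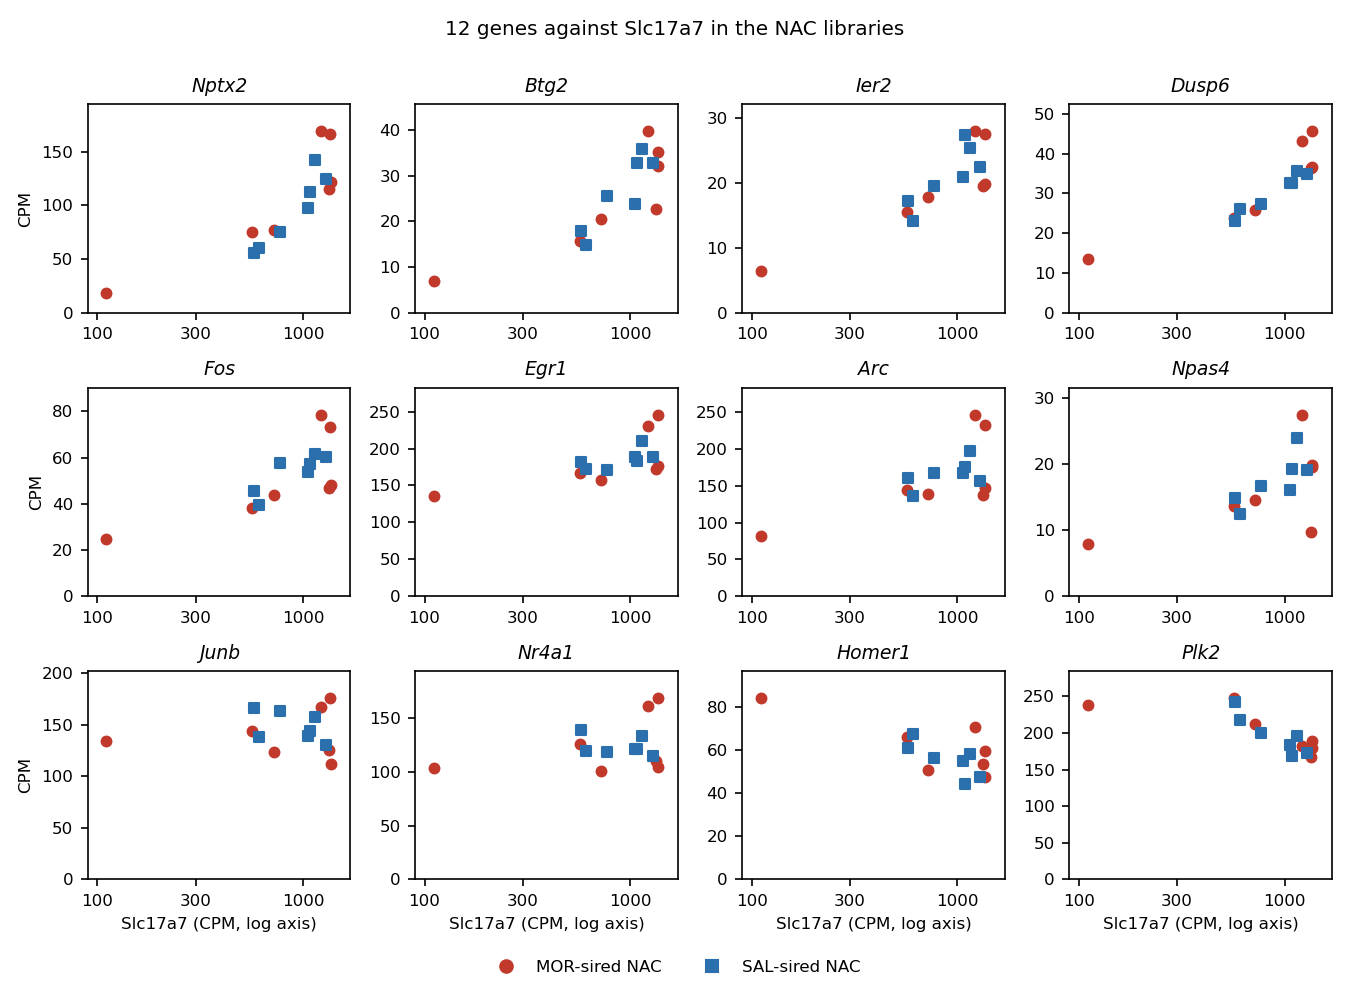
CPM of 12 genes (vertical axes, from 0) against CPM of Slc17a7 (horizontal log axis) in the NAC libraries, MOR-sired as circles and SAL-sired as squares. The circle at far left is MOR_NAC 4 with 111 CPM of Slc17a7; Nptx2 and Dusp6 rise over the remaining 13 libraries as well, while Junb and Nr4a1 do not line up with Slc17a7.

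Activity-induced genes outside the 40 were listed for comparison, as were upstream signalling genes. Of 30 activity-induced genes, 29 were tested in NAC, of which 13 rose with Slc17a7 (44.8%, against 20.1% of all genes) and 7 fell (24.1%, against 18.7% of all genes). The smallest p belonged to Bdnf, the neurotrophin of cortical afferents, with a slope of 1.04 (SE 0.10), Nrn1, a neurite-promoting protein, with 0.89 (SE 0.08), and Ccn2, with 0.46 (SE 0.05). Of 26 upstream genes 3 rose (11.5%, against 20.1% of all genes) and 11 fell (42.3%, against 18.7% of all genes). Among those that fell were Ppp3ca, a catalytic subunit of calcineurin, at −0.46 (SE 0.05), the kinase Rps6ka5 at −0.57 (SE 0.07) and Map2k1 at −0.30 (SE 0.04). By sire group the edgeR test called 0 genes of either list in either region. At an unadjusted p under 0.05 it counted 0 of 29 activity-induced and 1 of 26 upstream genes in NAC, against 6.18% of all genes. In VTA it counted 1 of 28 and 5 of 26, against 5.31% of all genes. Crtc2, a coactivator of CREB, was at 0.22 (SE 0.08) in NAC and 0.23 (SE 0.08) in VTA. Ppp3cb was at −0.15 (SE 0.04) in VTA, with 88.1 to 115 CPM in MOR-sired and 118 to 128 CPM in SAL-sired libraries, and Nrn1 at −0.30 (SE 0.09). None of these passed adjustment.

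In NAC the members also varied together beyond the shared slope on Slc17a7. Over 780 pairs of members the median r between libraries was 0.364, against 0.014 over pairs of all genes tested, and leaving out single libraries moved it between 0.291 and 0.425. After the Slc17a7 slope and the sire means were removed, the median was 0.495, against 0.018 for all genes. The highest pairs were then Egr1 with Trib1 (0.945), Egr1 with Nr4a1 (0.943), Junb with Nr4a1 (0.931) and Junb with Arc (0.929). The lowest was Ptgs2 with Scg2 (−0.790). These r are descriptions over 14 libraries that share depth and composition.

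The shared variation set libraries of the same sire group apart from each other. After removal of the slope and the sire mean, MOR_NAC 5 lay above 0 for 38 of 40 members (57.4% of all genes), MOR_NAC 3 for 34 (43.2%) and SAL_NAC 2 for 36 (51.3%). MOR_NAC 2 lay above 0 for 5 members (57.1% of genes), MOR_NAC 7 for 7 (39.3%) and SAL_NAC 1 for 4 (53.6%). In plain levels MOR_NAC 5 was the highest of 14 libraries for 14 members (8.64% of genes) and MOR_NAC 3 for 13 (6.22%), while MOR_NAC 4 was the lowest for 20 (21.2%). Fos, for example, was at 78.5 CPM in MOR_NAC 5 and 73.4 CPM in MOR_NAC 3, against 46.7 CPM in MOR_NAC 7, while their Slc17a7 was 1220, 1357 and 1337 CPM. In VTA the median r over pairs was 0.232, against 0.218 over all genes, and without SAL_VTA 2 it was 0.205, against 0.232.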

How the data were processed

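RNA of bilateral brain punches was sequenced in 14 NAC and 10 VTA libraries from a directional kit, per the labels' protocols. The authors deposited estimated counts of genes, 1 table per region, and the submitters' processing notes name Trim Galore, kallisto and DESeq2 without versions or roles. Per the deposited tables' own names, transcript abundances were scaled to each library's total, so a value is per length and not a number of reads. For the genome build and the strand setting, the sources used here give nothing.

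Estimated counts were rounded to whole numbers. CPM is the count per 1e6 of a library's total. Genes were kept by filterByExpr of edgeR (4.0.16, R 4.3.3), which all 40 members passed in each fit, and tested with its quasi-likelihood test, TMM factors and Benjamini-Hochberg adjustment over all genes kept, two-sided, at 0.05. The SE is the estimate over the square root of F. The NAC slope used centred log2(Slc17a7 CPM + 1) beside sire group, without Slc17a7 among the genes tested. Correlations used log2(CPM + 1), with 100000 permutations. Alternatives were DESeq2 (1.42.0), other scalings, no filter, covariates, and left-out libraries. The edgeR tests were also run on data simulated with known changes. For the sire effect, 62.1% of 1.5-fold and 74.2% of 2-fold changes were recovered in NAC, and 40.0% and 62.1% in VTA. For the difference between regions, 31.8% of 1.5-fold and 60.9% of 2-fold changes were recovered. In these simulations many genes drawn from all those kept were changed at once, by up to 4-fold, while edgeR called 0 genes by sire group in the data. The rates may therefore be too high for the data, and they are not those of the 40 members. For the difference between regions each gene was simulated at its mean level over both regions. Changes by sire group of 2-fold or less could have been missed.

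Named were Fos, Egr1, Arc, Npas4, Nr4a1, Junb, Dusp1, Homer1, Nptx2 and Vgf, the 4 members of smallest sire p per region, the 2 of smallest interaction p and the 5 highest and 5 lowest slopes. Of each other list, the 4 genes of smallest sire p per region and the 3 of smallest slope p were eligible. The members and lists were chosen with earlier results of these data known. Levels of other members named in the text were picked after their values were seen.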

Additional observations from a re-analysis of the deposited data

Results flagged for a closer look

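In 92 groups of libraries (23 named members by 4 groups), 3 had a library far from the others. This is a smaller share than the 1 in 20 groups or so that chance alone flags. SAL_VTA 2 lay far above the other SAL-sired VTA libraries for Egr3 (11.15 CPM, against 0.196 to 0.613 CPM) and for Arc (11.14 CPM, against 2.75 to 4.04 CPM). SAL_VTA 3 lay below the other SAL-sired VTA libraries for Nr4a1 (5.841 CPM, against 9.48 to 10.4 CPM).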

How the results depend on the processing

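Limits: each sire group has 7 NAC or 5 VTA libraries of unnamed animals, and scaled abundances carry no read number for a gene, so members under 1 CPM in VTA rest on little. No member was called for sire group in any alternative, while other counts moved. DESeq2 called 4 genes in NAC, 30 in VTA, 97 for the difference between regions and 65 at equal Slc17a7. Members at an unadjusted p under 0.05 numbered 2 in NAC with the Slc17a7 covariate. In VTA they were 9 with library totals and 2 with the replicate block. For the difference between regions they were 5 with library totals and 5 without the 4 Xist libraries, where 7 genes were called. At equal Slc17a7 they were 1 with RLE size factors, DESeq2, no filter or the replicate block. Without the 2 libraries farthest in Slc17a7, 9 members rose and 1 fell, with 1659 and 1721 genes. The causes were not tested.

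Some estimates changed sign. In NAC these were Egr1 (0.00494 with the Slc17a7 covariate, 0.00442 with library number class), Arc (0.00547 with that class) and Nr4a1 (−0.00257 with RLE, −0.00255 with DESeq2, −0.0167 with no filter, −0.0268 with the replicate block). In VTA they were Nr4a1 (0.0691 without SAL_VTA 2 and the Xist libraries), Dusp1 (−0.0170 with library totals) and Nptx2 (0.0536 without the Xist libraries, 0.0266 without SAL_VTA 2 as well). Between regions they were Fos (0.000733 with no filter), Nr4a1 (0.00172 without the Xist libraries) and Junb (−0.0300 with library totals and −0.0314 without the Xist libraries). Slopes of Junb (−0.0189) and Vgf (−0.11) turned without the 2 farthest libraries.

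Leaving out single libraries gave, for members at an unadjusted p under 0.05, 0 to 1 in NAC, 2 to 9 in VTA, 2 to 6 between regions and 0 to 4 at equal Slc17a7, where 0 to 53 genes were called. Genes rising with Slc17a7 numbered 2329 to 3733. In NAC estimates ran from −0.177 to 0.0629 for Arc, −0.162 to 0.0148 for Dusp1, −0.117 to 0.0351 for Egr1, −0.231 to 0.0199 for Fos, −0.00703 to 0.33 for Nptx2, −0.0922 to 0.0450 for Nr4a1 and −0.00871 to 0.0770 for Vgf. In VTA they ran from −0.0132 to 0.166 for Dusp1, −0.28 to 0.14 for Fos, −0.148 to 0.0895 for Junb, −0.20 to 0.35 for Npas4 and −0.19 to 0.00663 for Nptx2. Between regions they ran from −0.17 to 0.25 for Fos, −0.0386 to 0.199 for Junb and −0.0860 to 0.454 for Npas4. Slopes ran from −0.0169 to 0.0484 for Junb and −0.108 to 0.0847 for Vgf. Deviations of same-numbered libraries correlated weakly or negatively (r from −0.382 to 0.176 in NAC and from −0.185 to 0.158 in VTA). In VTA, however, the libraries of replicate 1 matched each other best, as did those of replicate 2. Whether the numbers pair libraries was therefore not settled. With the replicate block 19 members kept a called slope.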
